A study of Mus musculus with 18 samples.

Results

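The difference between genotype effects at 2 embryonic stages was measured across all genes in the epithelium of mouse mammary buds with stabilized β-catenin. All 18 libraries of the series were used, in 4 groups by stage and genotype, and the quantity tested was the stabilized minus control difference at E16.5 less the same difference at E13.5, here called the interaction. Of 24376 genes in the count table, 17269 had enough counts to be tested, and 5562 of these passed for the interaction in edgeR's quasi-likelihood test (32.2% of genes tested, at an adjusted p of 0.05). The genes that passed were described by what their genotype effect did between the stages: it reversed, appeared late, faded, or kept its sign and changed in size.

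Stabilized embryos carried 1 copy of Krt14Cre, which puts the Cre recombinase under a keratin 14 promoter active in surface epithelium, and 1 floxed Ctnnb1 allele whose exon 3 Cre removes. They therefore held 1 wild-type and 1 stabilized β-catenin allele in the epithelium (genotype Krt14Cre/wt; Ctnnb1 flox3/wt). Controls were littermates with the same floxed allele and without Cre, on the same mixed background of C57Bl/6 and NMRI. At E13.5 there were 4 control and 4 stabilized libraries from embryos of both sexes, and at E16.5 there were 5 and 5 from females only. Each library pooled 2 to 3 embryos of a litter and genotype, and the epithelium of buds 1 to 3 was dissected by hand after enzyme treatment of ventral skin. Effects of Cre itself or of its insertion cannot be told apart from those of stabilized β-catenin, and a change with stage cannot be told apart from the change in sex makeup. Which litter a library came from is not stated, and the tests take the libraries of a group as separate samples. In bulk tissue such as this, fewer cells of a type and less RNA per cell cannot be told apart.

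Canonical Wnt signalling works through β-catenin: without Wnt ligand a destruction complex marks it for breakdown through residues encoded by exon 3, and with ligand it builds up and acts with TCF/LEF factors on target genes. Many targets, among them Axin2, Notum, Nkd1 and the Dkk genes, encode inhibitors that feed back on the pathway. In mouse embryos Wnt signalling is needed to form the mammary placodes, which sink in as buds that stay nearly quiescent for some days and later resume proliferation, sprout and branch. The same pathway drives placode formation and shaft differentiation in hair follicles, which form in the neighbouring skin.

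Library totals ran from 26768810 to 36922108 counts. CPM below is the usual scaled count (edgeR's cpm), relative to the library total times its TMM factor. It compares libraries for 1 gene and is not a level per transcript length, so no level is compared between genes. The 10 defining markers of mammary epithelium (Epcam, Cdh1, Krt5, Krt14, Krt8, Krt18, Trp63, Krt17, Tbx3, Gata3) were above 0 in all 4 groups, so no marker of the labelled tissue was absent. Of these 10, 4 passed with a higher interaction (Gata3, Krt5, Trp63, Tbx3) and 3 with a lower one (Epcam, Krt18, Krt17). For all genes tested the shares were 15.6% and 16.6%. A set of 3 libraries stood apart from their groups. E13.5 control replicate 3 had 4.18% mitochondrially encoded counts against 2.18% to 2.50% in the other E13.5 controls. In E16.5 stabilized replicate 4 the 50 most abundant genes took 33.6% of counts, against 10.96% to 14.9% in the other E16.5 stabilized libraries. The summed level of Y-linked genes in that library was 113 CPM, against 3.18 to 27.3 CPM in the other E16.5 libraries, although all E16.5 embryos were labelled female. E16.5 stabilized replicate 1 had the highest Tchh and Sbsn levels, given below. Without these 3 libraries 5611 genes passed for the interaction, 4760 of them shared with the 5562 of the full data. E13.5 stabilized replicate 2 was kept in that run. Its first principal component was -70.91, against -40.87 to -31.51 in the other E13.5 stabilized libraries and -117.7 to -97.71 in E13.5 controls. Leaving it out alone gave 5369 genes, 5074 of them shared with the full data.

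Across all genes tested, 2692 had a higher interaction (15.6%) and 2870 a lower one (16.6%). The genotype effect alone passed for 2569 genes at E13.5 (14.9%; 9.58% higher and 5.29% lower in stabilized samples) and for 7194 at E16.5 (41.7%). The largest class was the late one, with 3426 genes that passed at E16.5 and not at E13.5 (19.8% of genes tested). A further 823 genes were reversed, which means that they passed at both stages with opposite signs (4.77%). Of the reversed genes, 502 were higher in stabilized buds at E13.5 and lower at E16.5 (2.91%), and 321 went from lower to higher (1.86%). Fading genes, which passed at E13.5 and not at E16.5, numbered 602 (3.49%). In another 299 the sign stayed the same, with 197 effects larger at E16.5 (1.14%, 0.133% in genes that were lower) and 102 smaller (0.591%, 0.0753% in genes that were lower). The remaining 412 passed for the interaction alone. The genes nearest the threshold were Dctn6 and Pcdhgb1 just inside it, both at an edgeR adjusted p of 0.04999, and Antxr1 and Zfp780b just outside it at 0.05007. A late or fading call rests partly on a test that was not passed at the other stage. Of 1680 late genes that were higher at E16.5, 1263 had an E13.5 effect under 1.5-fold, and 433 had an E13.5 effect of the same sign.

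**Figure D1:**
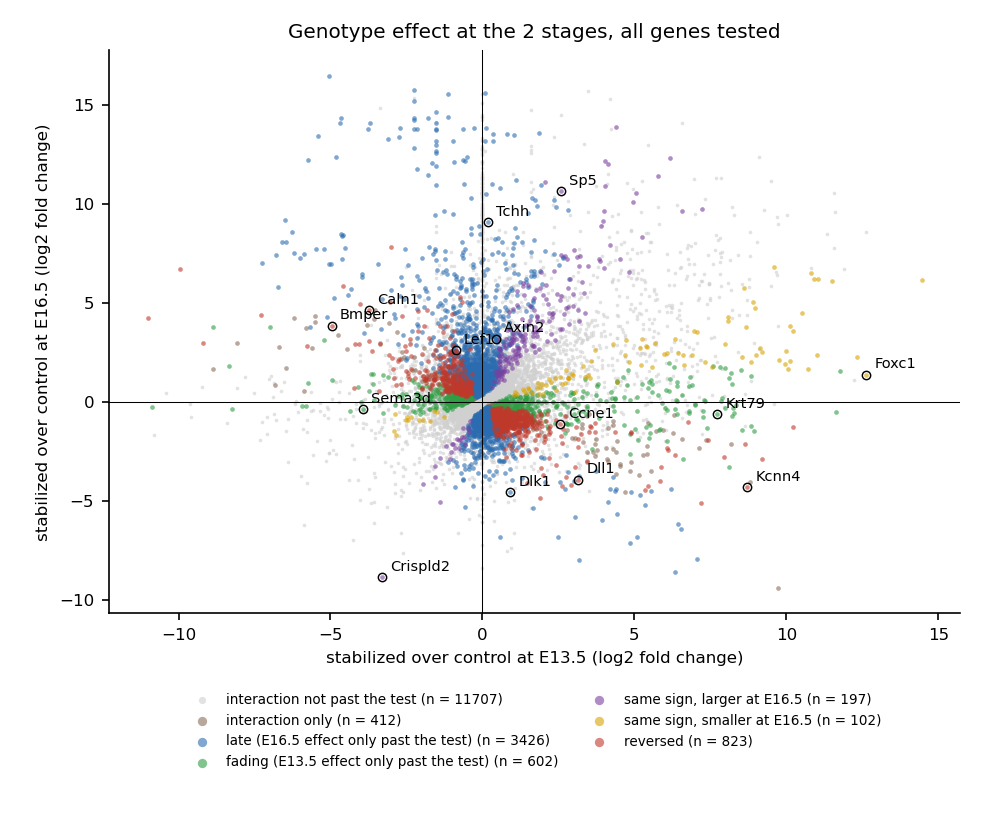
Each point is 1 of the 17269 genes tested, with the stabilized minus control log2 fold change at E13.5 on the x axis and at E16.5 on the y axis, coloured by class, with named genes labelled. Reversed genes lie in the upper left (321 genes) and lower right (502 genes), and most late genes lie close to the vertical axis.

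Seen from the other side, the interaction is the stage change in stabilized samples less the stage change in controls. More genes passed for the change between E13.5 and E16.5 in controls (8206, 47.5%) than in stabilized samples (4842, 28.0%). These counts do not measure the size of the change. Among the 502 genes that went from higher to lower, the median log2 stage change was 1.77 in controls and -0.07 in stabilized samples. In that class 491 genes rose with stage in controls, where 24.9% of all genes tested did. Among the 321 that went from lower to higher, the medians were -1.64 in controls and 0.37 in stabilized samples, and 295 fell with stage in controls (22.6% of all genes tested). These classes were chosen on the same 4 groups, and the contrasts share libraries, so the counts describe the classes and test nothing further.

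The genes that went from higher to lower with the largest effects at both stages were led by an ion channel, a transcription factor, a Notch ligand and a chemokine receptor. Here and below, rankings within a class are among genes at or above a mean log2 CPM of 1 and leave out predicted genes. Kcnn4, a calcium-activated potassium channel (chr7:24370263-24386690 in GRCm38/mm10), gave 0.0296, 0, 0 and 0 CPM in the 4 E13.5 controls and 6.6, 5.11, 4.33 and 4.06 CPM in the 4 E13.5 stabilized libraries. At E16.5 it gave 129, 89.7, 144, 114 and 103 CPM in the 5 controls and 2.07, 8.02, 4.26, 5.93 and 9.27 CPM in the 5 stabilized libraries. The groups did not overlap at either stage, the stabilized libraries lay at like levels at both, and the controls went from 1 count in all to the highest values. For that 1 count the ratio of stabilized to control at E13.5 had a counting interval from 115 to 25450. The fitted interaction was -13.01 ± 0.70 (log2 ± SE, edgeR adjusted p 4.68e-10) and depends on how the model treats the near-zero group.

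Ets1, an ETS-family transcription factor (chr9:32636221-32757820), measured 0.207, 0.238, 0.635 and 0.841 CPM in E13.5 controls and 26.6, 20.4, 26.1 and 36.02 CPM in E13.5 stabilized libraries. The E16.5 controls held 209.9, 214, 223, 209 and 223 CPM and the E16.5 stabilized libraries 7.81, 11.1, 15.6, 15.8 and 16.4 CPM. Every stabilized library was above every control at E13.5 and below every control at E16.5. The log2 effect was 5.84 ± 0.35 at E13.5 and -4.02 ± 0.27 at E16.5, and the interaction -9.85 ± 0.44 (edgeR adjusted p 7.77e-11).

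Dll1, a Notch ligand (chr17:15367354-15376872), gave 2.51, 1.81, 2.07 and 5.24 CPM in E13.5 controls against 25.8, 28.2, 26.4 and 23.8 CPM in stabilized buds. By E16.5 the controls held 288, 324, 315, 268 and 269 CPM and the stabilized libraries 11.98, 24.4, 18.1, 17.4 and 25.1 CPM. The stage change did not pass in stabilized samples (log2 -0.42 ± 0.24, edgeR adjusted p 0.205) and was 6.65 ± 0.32 in controls. The interaction was -7.08 ± 0.38 (edgeR adjusted p 4.68e-10).

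For Cxcr4, the receptor of the chemokine CXCL12 (chr1:128588199-128592293), the E13.5 values were 3.79, 7.08, 5.95 and 1.49 CPM in controls and 59.2, 44.3, 44.5 and 53.3 CPM in stabilized libraries. The E16.5 values were 95.7, 117, 139, 96.3 and 129 CPM in controls and 7.84, 18.6, 15.7, 18.4 and 12.1 CPM in stabilized libraries. Here too the order of the genotypes switched with no overlap, and the interaction was -6.45 ± 0.48 (edgeR adjusted p 3.28e-08). The same pattern held for Adamts4, a matrix protease (interaction -7.10 ± 0.80, edgeR adjusted p 3.73e-06), and for Rtn1, a reticulon (-6.52 ± 0.86, edgeR adjusted p 2.18e-05). Map3k21, a kinase, had no counts in any E13.5 control and 2.41 ± 1.33 CPM in E13.5 stabilized libraries (SD, n = 4), which is at least 102.9-fold higher with a floor of 3 counts over the group. It then stood at 50.4 ± 4.03 CPM in E16.5 controls and 6.91 ± 3.005 CPM in stabilized libraries (SD, n = 5).

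Sox10, a transcription factor known from neural crest derivatives and also found in embryonic mammary epithelium (chr15:79154908-79165240), measured 1.95, 0.833, 1.505 and 1.003 CPM in E13.5 controls and 11.01, 9.89, 5.47 and 6.25 CPM in stabilized buds. At E16.5 it reached 535, 527, 614, 615 and 480.1 CPM in controls and 9.22, 60.8, 17.9, 24.6 and 35.4 CPM in stabilized libraries. The groups did not overlap at either stage, and the interaction was -6.84 ± 0.63 (edgeR adjusted p 7.05e-07). Sox10 is itself one of 13 Schwann cell markers, whose summed level ran from 192.2 to 263.3 CPM in E13.5 controls, 210.5 to 267.1 in E13.5 stabilized, 989.1 to 1155 in E16.5 controls and 251 to 463.3 in E16.5 stabilized libraries. Of the other markers, Foxd3, Cdh19 and Fabp7 were at 0 in E13.5 controls, Cdh19 and Fabp7 in E13.5 stabilized libraries, and none at E16.5. Over the list, 3 of 13 passed with a higher interaction and 4 with a lower one (15.6% and 16.6% of all genes tested). The part of Schwann cells in the Sox10 result was not tested.

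**Figure D2:**
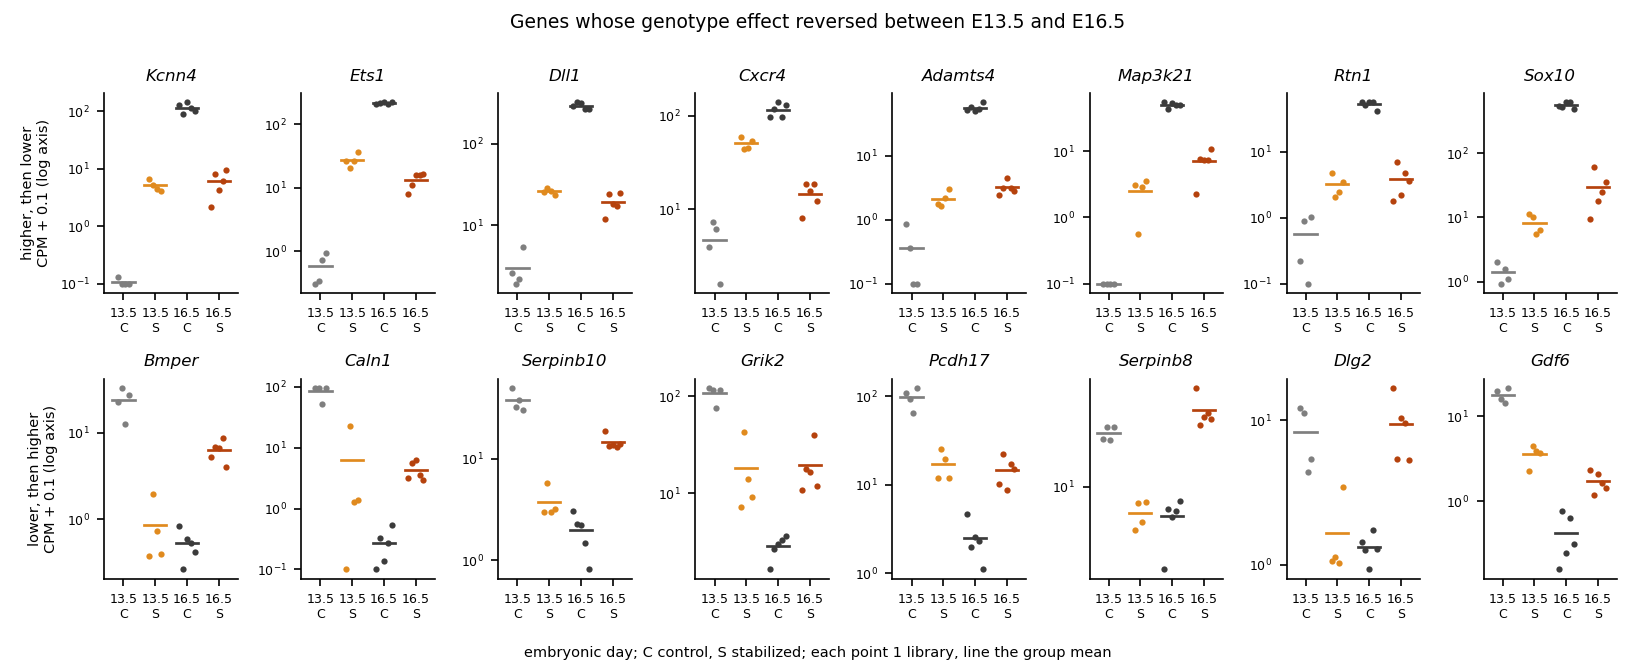
Each panel is 1 of the 16 reversed genes named by rule, with CPM plus 0.1 on a log axis, 1 point per library, a line at each group mean, C for control and S for stabilized. In the genes that went from higher to lower, the stabilized libraries lie above the controls at E13.5 and below them at E16.5, as for Ets1, and the order is the opposite in the others.

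Genes that went from lower to higher were led by 8 whose level was lower in E16.5 controls than in E13.5 controls. Bmper, a secreted Bmp-binding regulator (chr9:23223076-23485200), gave 22.8, 33.1, 12.6 and 27.3 CPM in E13.5 controls and 0.274, 1.86, 0.624 and 0.294 CPM in E13.5 stabilized libraries. It gave 0.7297, 0.162, 0.489, 0.436 and 0.321 CPM in E16.5 controls and 5.13, 6.69, 6.54, 8.75 and 3.94 CPM in E16.5 stabilized libraries. No E13.5 stabilized library reached the lowest control, and at E16.5 every stabilized library was above every control (interaction 8.81 ± 0.78, edgeR adjusted p 1.04e-07).

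The neighbouring serine protease inhibitor genes Serpinb10 and Serpinb8 on chromosome 1 (chr1:107529003-107549271 and chr1:107590006-107610484) behaved alike. Serpinb10 held 50.02, 32.2, 38.2 and 30.6 CPM in E13.5 controls, 2.91, 5.67, 2.88 and 3.14 in E13.5 stabilized, 2.98, 2.17, 2.14, 1.37 and 0.714 in E16.5 controls and 18.6, 13.2, 13.52, 13 and 14.1 CPM in E16.5 stabilized libraries. Neither stage had any overlap between genotypes, and the interactions were 6.31 ± 0.46 for Serpinb10 (edgeR adjusted p 1.07e-08) and 5.56 ± 0.46 for Serpinb8 (edgeR adjusted p 6.48e-08). Serpinb8 ended at 48 ± 16.2 CPM in E16.5 stabilized libraries against 30.2 ± 4.55 in E13.5 controls.

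A group of 4 genes best known from the nervous system followed the same order. Grik2, a kainate receptor subunit, had mean levels of 107, 18.3, 2.76 and 19.4 CPM in E13.5 control, E13.5 stabilized, E16.5 control and E16.5 stabilized libraries (interaction 5.36 ± 0.72, edgeR adjusted p 2.78e-05). Pcdh17, a protocadherin, had 96.7, 17.1, 2.42 and 14.5 CPM in that order (5.08 ± 0.53, edgeR adjusted p 1.32e-06). Dlg2, a synaptic scaffold protein, had 8.21, 1.57, 1.23 and 9.38 CPM (5.31 ± 0.69, edgeR adjusted p 8.18e-06). Caln1, a calcium-binding protein, was uneven within E13.5 stabilized buds (0, 22.7, 1.18 and 1.28 CPM), and its interaction was 8.36 ± 1.64 (edgeR adjusted p 0.00109) and 11.29 without E13.5 stabilized replicate 2. Of 21 neuronal markers tested, 2 passed with a higher interaction and 2 with a lower one (15.6% and 16.6% of all genes tested). Their summed level was 64.65 to 84.08 CPM in E13.5 controls and 252.3 to 341.3 in E13.5 stabilized libraries, where these 4 genes were lower. At E16.5 it was 70.51 to 88.79 CPM in controls and 227.3 to 304.5 in stabilized libraries, where these 4 genes were higher. The last of the 8 was Gdf6, a Bmp-family ligand (4.65 ± 0.68, edgeR adjusted p 2.82e-05).

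Most genes of the cell cycle went from higher to lower. Of 47 genes for DNA replication, 44 passed with a lower interaction, where 16.6% of all genes tested did. Reversed genes made up 35 of the 47, against 4.77% of all genes tested. No replication gene had a higher interaction in edgeR or DESeq2 (0 of 47 each), nor at an unadjusted p of 0.05 (0 of 47). Among 62 genes for mitosis, 60 passed with a lower interaction and 1 with a higher one, and 45 were reversed. Both lists rose with stage in controls (45 of 47 and 61 of 62 genes), while in stabilized samples 6 and 23 rose. The median log2 effects were 0.77 at E13.5 and -1.01 at E16.5 for replication genes, and 1.31 and -0.78 for mitosis genes. Over all genes tested these medians were 0.01 and 0.10.

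Mcm3, a subunit of the replicative helicase (chr1:20802968-20820312), had 57.6, 52.4, 48.2 and 51.7 CPM in E13.5 controls and 114, 134, 117 and 106 in E13.5 stabilized buds. By E16.5 it was at 302, 273, 283, 249 and 264 CPM in controls and 101, 108, 128, 84.05 and 112 CPM in stabilized libraries. Stabilized libraries overlapped between stages (log2 stage change -0.14 ± 0.11, edgeR adjusted p 0.385) and lay above the early controls and below the late ones (interaction -2.53 ± 0.16, edgeR adjusted p 1.62e-09). Top2a, the topoisomerase that untangles replicated DNA (chr11:98992943-99024189), had 148, 123, 131 and 93.2 CPM in E13.5 controls and 329, 263, 358 and 341 CPM in E13.5 stabilized buds. Its E16.5 values were 935, 792, 737, 798 and 809 CPM in controls and 410.5, 443, 503, 443 and 421 CPM in stabilized libraries. Again no library crossed between the genotypes, and the order changed (interaction -2.26 ± 0.19, edgeR adjusted p 4.72e-08).

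Ccne1, the cyclin of S-phase entry, had the smallest adjusted p among the replication genes. Its mean levels were 6.97, 40.6, 34.7 and 15.8 CPM in E13.5 control, E13.5 stabilized, E16.5 control and E16.5 stabilized libraries, so it fell with stage in stabilized samples (log2 -1.36 ± 0.16, edgeR adjusted p 3.47e-06). The interaction was -3.68 ± 0.23 (edgeR adjusted p 1.47e-09). Exo1, a repair exonuclease (-2.60 ± 0.22, edgeR adjusted p 5.87e-08), and Rrm2, the ribonucleotide reductase subunit that supplies deoxynucleotides (-2.40 ± 0.21, edgeR adjusted p 9.29e-08), were reversed. Among mitosis genes the checkpoint kinase Bub1b (-2.76 ± 0.22, edgeR adjusted p 2.76e-08), cyclin A2 (Ccna2, -2.53 ± 0.21, edgeR adjusted p 5.87e-08) and Aurora kinase B (Aurkb, -2.65 ± 0.23, edgeR adjusted p 8.27e-08) were reversed. The exception in direction was Spc24, a kinetochore subunit that was higher late (1.22 ± 0.36, edgeR adjusted p 0.0153). Pttg1, securin, did not pass (-0.90 ± 0.40, edgeR adjusted p 0.0952).

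Not every proliferation gene was lower in stabilized epithelium at E16.5. In the mitosis list 13 genes were fading (3.49% of all genes tested), among them Mki67, Cenpf, Ccnb2 and Cdc25c. The log2 effect of Mki67 was 1.59 ± 0.19 at E13.5 and -0.36 ± 0.16 at E16.5 (edgeR adjusted p 0.0901 for the latter). In the replication list 8 were late and lower, where 10.1% of all genes tested were: Pold1, Orc1, Gins1, Prim2, Pole2, Gins3, Rfc3 and Rfc4. Ccne2 faded. E2f2, Gins4 and Gins2 did not pass for the interaction. Without the 3 libraries that stood apart the counts were 44 of 47 and 60 of 62 lower. With offsets taken from the deposited normalized values, the counts were 43 and 51, with 25 and 34 reversed in place of 35 and 45.

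Of 21 cell-cycle inhibitors, 6 passed with a higher and 5 with a lower interaction (15.6% and 16.6% of all genes tested). Btg1, an anti-proliferative gene, was reversed in the other direction from the replication genes (means of 793.5, 315.4, 175.4 and 241.5 CPM in the order used above; 1.79 ± 0.17, edgeR adjusted p 2.82e-07). Cdkn1c, which encodes the inhibitor p57, was late and higher (2.50 ± 0.31, edgeR adjusted p 4.07e-06), as was Rb1 (1.89 ± 0.25, edgeR adjusted p 8.3e-06). Cdkn1a, which encodes p21, was higher at both stages by an amount that shrank (10.2, 383.5, 36.1 and 329.2 CPM; -2.05 ± 0.38, edgeR adjusted p 0.000471). Wee1, a kinase that holds back mitotic entry, went from higher to lower like the mitosis genes (-1.64 ± 0.16, edgeR adjusted p 3.86e-07).

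**Figure D3:**
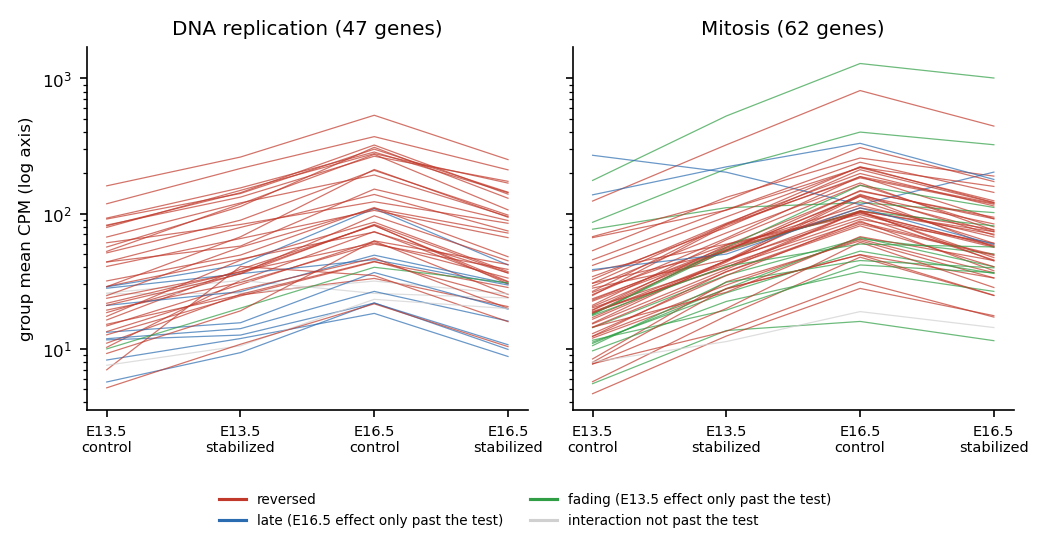
Group mean CPM on a log axis for the 47 DNA replication genes and 62 mitosis genes over the 4 groups, 1 line per gene, coloured by class. Most lines rise from E13.5 control to E13.5 stabilized, peak in E16.5 controls and drop in E16.5 stabilized libraries.

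Promoter sequences are given because the members of the cell-cycle lists moved together and because the pathway altered here acts through DNA-bound TCF/LEF factors. RefSeq entries in GRCm38.p6 gave the 250 bases upstream of the start for 12319 of the genes tested. They were searched on both strands for CTTTGAT, a core of TCF/LEF sites, and, as a choice made after seeing the data, for GCGGGAA (an E2F core), CCAAT (the NF-Y box) and TTTGAA (the cell cycle genes homology region). Matches are letters in this window and no binding was measured. Among 3 of the leading reversed genes of each direction with an entry (Kcnn4, Dll1, Cxcr4, Bmper, Caln1 and Serpinb10) none held CTTTGAT in this window. One of each direction, Dll1 and Bmper, is printed, followed by 4 reversed cell-cycle genes picked after their values were seen and by the β-catenin target Sp5. The sequences below run 5′ to 3′ on the gene's strand, with matches to any of these letters in capitals.

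Dll1 (chr17:15376933-15377182, reverse strand): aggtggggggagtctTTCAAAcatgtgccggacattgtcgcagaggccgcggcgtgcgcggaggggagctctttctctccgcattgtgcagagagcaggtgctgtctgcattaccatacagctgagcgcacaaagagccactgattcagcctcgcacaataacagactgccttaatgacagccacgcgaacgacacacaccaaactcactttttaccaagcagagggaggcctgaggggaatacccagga
Bmper (chr9:23222826-23223075, forward strand): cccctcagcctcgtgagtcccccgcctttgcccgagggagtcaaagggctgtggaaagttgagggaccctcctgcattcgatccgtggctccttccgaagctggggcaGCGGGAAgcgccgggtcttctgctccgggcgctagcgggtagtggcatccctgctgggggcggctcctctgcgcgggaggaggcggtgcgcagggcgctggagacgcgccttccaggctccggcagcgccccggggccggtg
Mcm3 (chr1:20820313-20820562, reverse strand): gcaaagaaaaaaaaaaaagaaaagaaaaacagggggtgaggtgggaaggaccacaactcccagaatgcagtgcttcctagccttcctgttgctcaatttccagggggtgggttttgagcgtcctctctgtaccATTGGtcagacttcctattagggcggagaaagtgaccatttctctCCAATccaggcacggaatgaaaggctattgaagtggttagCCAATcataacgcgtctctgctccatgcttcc
Rrm2 (chr12:24708004-24708253, forward strand): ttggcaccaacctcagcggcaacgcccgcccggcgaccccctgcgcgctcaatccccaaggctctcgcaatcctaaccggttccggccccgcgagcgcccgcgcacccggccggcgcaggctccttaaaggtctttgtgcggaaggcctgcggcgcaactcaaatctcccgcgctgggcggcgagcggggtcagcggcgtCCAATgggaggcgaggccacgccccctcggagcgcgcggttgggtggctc
Bub1b (chr2:118597961-118598210, forward strand): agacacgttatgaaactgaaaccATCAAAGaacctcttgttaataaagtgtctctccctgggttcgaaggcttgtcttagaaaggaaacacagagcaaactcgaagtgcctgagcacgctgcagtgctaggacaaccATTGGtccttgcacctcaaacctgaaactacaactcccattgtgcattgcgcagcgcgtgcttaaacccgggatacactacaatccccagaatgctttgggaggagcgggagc
Top2a (chr11:99024190-99024439, reverse strand): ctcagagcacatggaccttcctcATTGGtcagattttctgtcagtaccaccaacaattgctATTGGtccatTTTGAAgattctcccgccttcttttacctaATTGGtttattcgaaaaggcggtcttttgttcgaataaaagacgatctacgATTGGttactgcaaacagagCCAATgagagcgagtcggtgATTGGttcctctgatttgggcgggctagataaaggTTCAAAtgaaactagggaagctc
Sp5 (chr2:70474673-70474922, forward strand): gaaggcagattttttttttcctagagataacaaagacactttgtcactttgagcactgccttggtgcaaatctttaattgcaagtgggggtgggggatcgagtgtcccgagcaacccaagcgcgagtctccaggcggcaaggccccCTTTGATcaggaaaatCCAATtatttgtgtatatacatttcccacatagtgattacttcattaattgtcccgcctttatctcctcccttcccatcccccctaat

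Dll1 held 1 TTTGAA match and Bmper 1 GCGGGAA match. Others were searched and are not printed. Of these, Ccne1, Lef1, Axin2, Kcnn4 and Cxcr4 held no match to any of these letters, Caln1 held 1 CCAAT match and Serpinb10 1 TTTGAA match. Top2a, on the reverse strand, held 6 CCAAT and 2 TTTGAA matches, Mcm3 3 CCAAT matches and Rrm2 1. Bub1b held 1 CCAAT and 1 CTTTGAT match, as did Sp5. CCAAT occurred in 35.9% of all promoters searched, in 62.2% of those of replication genes (23 of 37) and in 74.5% of those of mitosis genes (38 of 51). GCGGGAA occurred in 6.43% of all, 27% of replication (10 of 37) and 1.96% of mitosis promoters (1 of 51), and TTTGAA in 11.5% of all and 35.3% of mitosis promoters (18 of 51), and in 5 of 37 replication promoters. CTTTGAT occurred in 2.4% of all promoters, in 1.82% of those of genes that went from higher to lower (7 of 385), in 3.21% of those that went from lower to higher (8 of 249) and in 12.5% of those of Wnt targets (2 of 16). CTTTGAT and TTTGAA can share bases where one runs into the other.

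Late genes included the standard readout of β-catenin activity. Axin2, a scaffold of the destruction complex and a direct target (chr11:108920349-108950783), gave 352, 364, 271 and 260.4 CPM in E13.5 controls and 420.3, 348, 483 and 447 CPM in E13.5 stabilized buds. At E16.5 controls were at 23.2, 30.4, 26.01, 22.3 and 37.8 CPM and stabilized libraries at 254, 261, 316, 199 and 244 CPM. The genotypes overlapped at E13.5 and lay far apart at E16.5, where the controls had dropped. The E13.5 effect was 0.45 ± 0.17 (edgeR adjusted p 0.0976), the E16.5 effect 3.19 ± 0.17 and the interaction 2.75 ± 0.24 (edgeR adjusted p 8.32e-08). Lef1, the partner of β-catenin on DNA (chr3:131110471-131224356), was reversed: 713, 694, 441 and 596 CPM in E13.5 controls, 357, 278, 366 and 325 in E13.5 stabilized, 15.1, 32.4, 29.7, 25.7 and 31.2 in E16.5 controls and 171, 177, 133, 136 and 206.8 CPM in E16.5 stabilized libraries. It fell with stage in both genotypes, by 4.51 in controls and by 1.01 in stabilized samples on the log2 scale (interaction 3.50 ± 0.28, edgeR adjusted p 3.81e-08).

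The targeted gene Ctnnb1 had a mean of 2683 ± 333 and 3260.0 ± 347 CPM in E13.5 control and stabilized libraries (SD, n = 4), and 1248 ± 111 and 2278 ± 564 CPM at E16.5 (SD, n = 5). Its counts per gene do not show whether exon 3 was lost. The interaction was 0.59 ± 0.22 (edgeR adjusted p 0.0487), and it did not pass when any of 13 of the 18 libraries was left out (edgeR adjusted p 0.0502 to 0.106). It still passed without E13.5 control replicate 1, E16.5 control replicate 5 or E16.5 stabilized replicate 2, 4 or 5. Krt14, whose promoter drives Cre, was lower in stabilized buds at E13.5 (log2 -1.22 ± 0.25, edgeR adjusted p 0.00169) and did not pass at E16.5 (-0.37 ± 0.22, edgeR adjusted p 0.189) or for the interaction (0.85 ± 0.33, edgeR adjusted p 0.0541).

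Of 25 Wnt targets and feedback genes tested, 13 passed with a higher interaction and 4 with a lower one (15.6% and 16.6% of all genes tested). The median interaction was 1.48 against 0.09 for all genes. In 7 members the effect grew (1.14% of all genes tested). They were the transcription factors Sp5 and Sp6, the ligand Fgf20, the inhibitors Notum, Nkd1 and Apcdd1, and the repressor Prdm1. Sp5 (chr2:70474923-70477729) held 28.2, 20.2, 17.1 and 21.8 CPM in E13.5 controls and 103, 94.4, 171 and 154 in E13.5 stabilized libraries, against 0, 0.0646, 0.0752, 0 and 0 CPM in E16.5 controls and 54.3, 56.8, 56.2, 26.1 and 50.2 CPM in E16.5 stabilized libraries. Both genotypes fell with stage, controls to 4 counts in all (interaction 8.04 ± 0.56, edgeR adjusted p 8.6e-09). Notum, an enzyme that inactivates Wnt ligands, had an interaction of 4.19 ± 0.40 (edgeR adjusted p 4.05e-07). Late and higher beside Axin2 were the receptor Lgr6, Tnfrsf19 and Sp8.

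A further 3 members of this list went the other way late (10.1% of all genes tested). Ccnd1, cyclin D1, had means of 362.5, 374.8, 1576 and 373 CPM in E13.5 control, E13.5 stabilized, E16.5 control and E16.5 stabilized libraries (-2.13 ± 0.29, edgeR adjusted p 1.33e-05). Myc, the growth regulator, had 18.6, 20.5, 255.6 and 53.6 CPM (-2.39 ± 0.42, edgeR adjusted p 0.0003), and Nkd2, another feedback inhibitor, rose more in controls (-2.24 ± 0.36, edgeR adjusted p 9.81e-05). The other 8 members did not pass for the interaction, among them Lgr5 (-0.40 ± 0.33, edgeR adjusted p 0.391), Tcf7 and Rnf43. Bambi, a pseudoreceptor that damps Bmp and TGF-β signals, shrank (-1.11 ± 0.37, edgeR adjusted p 0.0268).

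Among late genes at or above a mean log2 CPM of 1, several of the 6 higher ones with the largest interactions are known from hair and epidermal differentiation. Tchh, trichohyalin of the inner root sheath (chr3:93442330-93449077), gave 3.79, 1.55, 6.32 and 2.23 CPM in E13.5 controls, 4.79, 2.42, 4.99 and 3.57 in E13.5 stabilized and 1.93, 3.88, 6.65, 5.46 and 2.29 CPM in E16.5 controls. The E16.5 stabilized libraries gave 4434, 1886, 1133, 1318 and 2105 CPM, far above every other library (interaction 8.89 ± 0.77, edgeR adjusted p 3.98e-07). Sbsn, suprabasin of differentiating epidermis, was under 7 CPM in every library of the other 3 groups and gave 1247, 189, 116, 178 and 234 CPM in E16.5 stabilized libraries (7.26 ± 0.97, edgeR adjusted p 3.82e-05, and 6.14 without E16.5 stabilized replicate 1). Klk7, a protease of the cornified layer (6.92 ± 1.34, edgeR adjusted p 0.00103), followed the same pattern but did not pass in limma-voom (adjusted p 0.0847). Gjb6, a gap junction connexin (8.46 ± 1.02, edgeR adjusted p 8.1e-06), Gpr55 (7.07 ± 0.89, edgeR adjusted p 5.95e-06) and Cemip differed in that the E16.5 controls were near 0.

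Cemip, which takes part in hyaluronan breakdown (chr7:83932857-84086502), shows this second kind. It gave 26.6, 24.7, 24.5 and 16.9 CPM in E13.5 controls, 24.4, 28.6, 20.6 and 21 in E13.5 stabilized, 0.321, 0.259, 0.1503, 0 and 0 in E16.5 controls and 35.8, 13.47, 28.1, 13 and 24.6 CPM in E16.5 stabilized libraries. The only group apart was the E16.5 controls (interaction 7.18 ± 0.69, edgeR adjusted p 4.63e-07). Trp63, the master regulator of stratified epithelia (chr16:25683763-25892102), had 439.6, 435, 338 and 444 CPM in E13.5 controls and 415, 447, 512 and 448 CPM in E13.5 stabilized buds. It had 76.2, 103, 88.4, 87.4 and 106 CPM in E16.5 controls and 788, 704, 756, 728 and 684 CPM in E16.5 stabilized libraries. The genotypes overlapped early and were separate late, where controls had fallen and stabilized libraries had risen (2.85 ± 0.17, edgeR adjusted p 7.07e-10).

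Among genes of the hair shaft and inner root sheath, the keratin-associated proteins Krtap7-1 and Krtap11-1 had means of 1234 and 417 CPM in E16.5 stabilized libraries and a mean of at most 0.165 CPM in any other group. Selenbp1 had 8.96, 7.49, 2.87 and 24.2 CPM in E13.5 control, E13.5 stabilized, E16.5 control and E16.5 stabilized libraries (3.33 ± 0.33, edgeR adjusted p 3.86e-07). Abca12, a lipid transporter of the skin barrier, had 2.65, 2.08, 5.28 and 171.6 CPM (5.37 ± 0.75, edgeR adjusted p 4.4e-05).

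For structural hair and epidermal genes the interaction test had little to work with at E13.5. Of 72 hair shaft and inner root sheath genes, 69 were higher at E16.5 (22.2% of all genes tested were), but 29 of the 72 had at most 3 counts in each E13.5 group, and 37 passed with a higher and 4 with a lower interaction. Among all genes tested, 15.6% passed with a higher and 16.6% with a lower interaction. Medians were taken with a group at 0 counts set to the floor of 3 counts. Without those 29 genes, the median log2 effect at E13.5 was 0.52. At E16.5, with all 72 genes, it was 11.63. In the epidermal differentiation list 51 of 53 were higher at E16.5, 15 passed with a higher interaction and 1 with a lower one (Krt79), and 16 were at the floor in both E13.5 groups. Across all genes, 239 passed at E16.5 with at most 3 counts in each E13.5 group, 220 of them higher, and 28 of the 239 passed for the interaction. DESeq2 called more of these genes, with 57 of the 72 hair genes and 32 of the 53 epidermal genes passing with a higher interaction. The absence of such a gene from the late class therefore does not show an effect of like size at E13.5. Hair keratins and keratin-associated proteins have near-identical copies whose counts are uncertain. Without the 3 libraries that stood apart, 28 of 69 hair genes and 12 of 49 epidermal genes passed with a higher interaction.

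Late genes that were lower in stabilized samples numbered 1746 (10.1% of genes tested). Of these, 1399 rose with stage in controls, where 24.9% of all genes tested did, a description of a class chosen on the same groups. Dlk1, a Notch-family membrane protein, had 4.14, 2.29, 56.2 and 11.3 CPM in E13.5 controls, 41, 32.2, 35.03 and 30.6 in E13.5 stabilized, 139, 99.98, 142, 116 and 114 in E16.5 controls and 3.41, 7.26, 2.96, 5.46 and 7.09 CPM in E16.5 stabilized libraries. E13.5 control replicate 3 was far above the other 3 controls, and without it the interaction was -7.10 in place of -5.45 ± 0.97 (edgeR adjusted p 0.000469). Osr1, a zinc-finger transcription factor, likewise had its highest E13.5 control value in that library, with an interaction of -5.42 ± 1.21 (edgeR adjusted p 0.00289) and -9.87 without it; it did not pass with offsets from the deposited normalized values (edgeR adjusted p 0.086). Camkv (-4.91 ± 0.56, edgeR adjusted p 2e-06), Fam181b (-4.71 ± 1.20, edgeR adjusted p 0.00651), Col9a2, a collagen IX chain (-4.84 ± 0.96, edgeR adjusted p 0.00106), and Pla2g7, a secreted phospholipase (-4.30 ± 0.60, edgeR adjusted p 3.42e-05), completed the 6 largest.

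**Figure D4:**
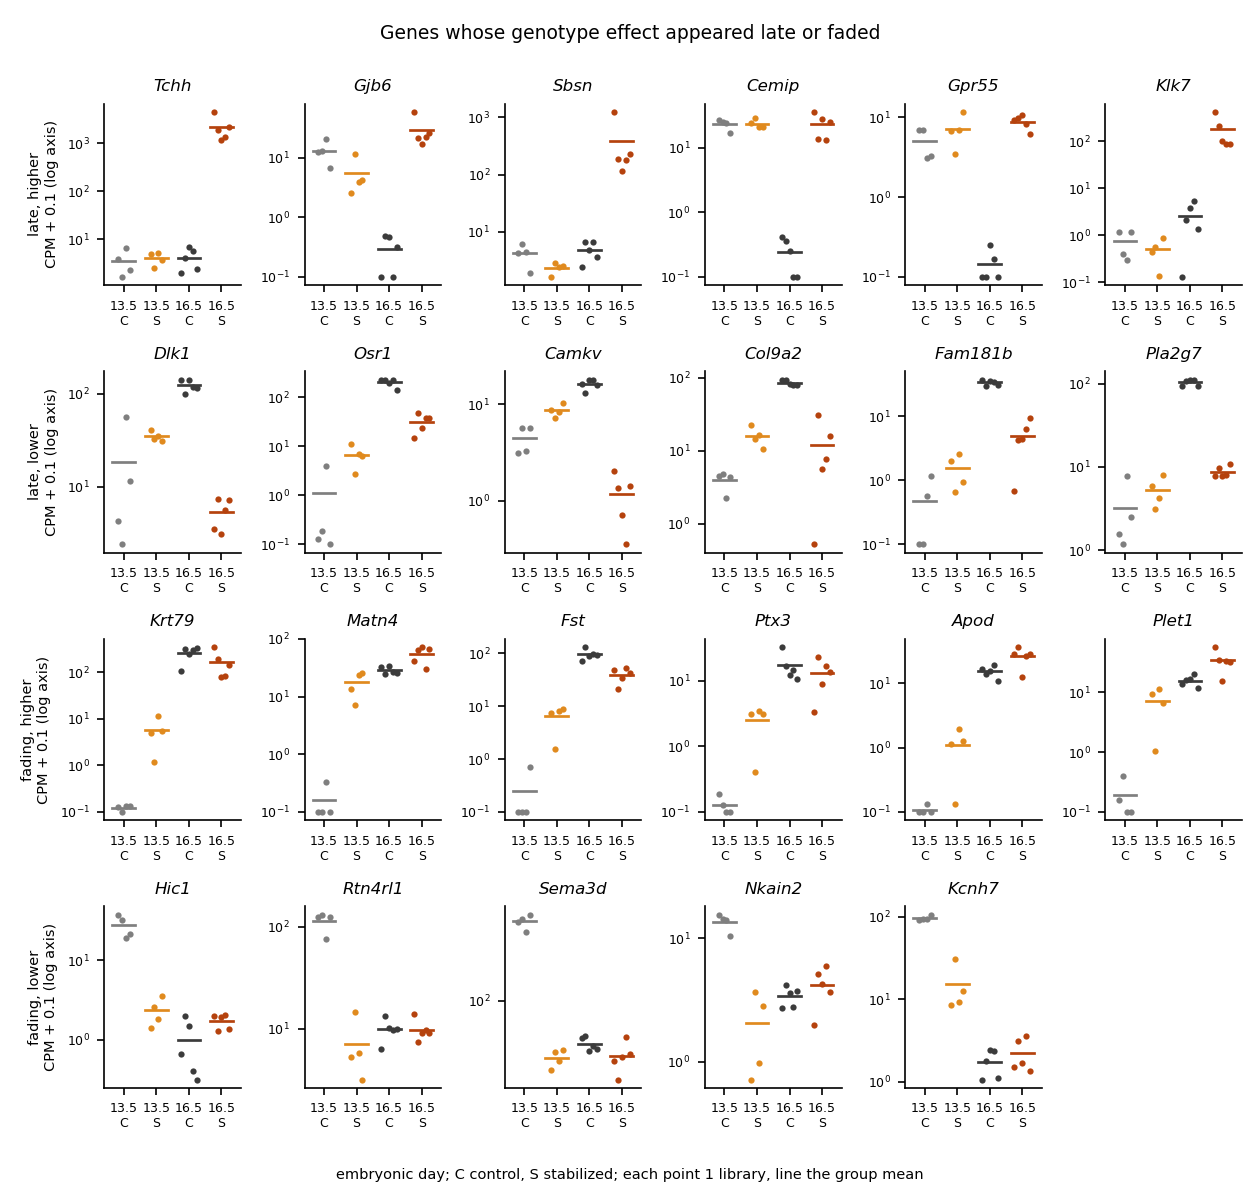
Each panel is 1 late or fading gene named by rule, with CPM plus 0.1 on a log axis, 1 point per library, a line at each group mean, C for control and S for stabilized. Cemip is a late gene with separate genotypes at E16.5, and Sema3d a fading gene with separate genotypes at E13.5. The fading gene Apod overlapped at E13.5 (control replicate 3 at 0.03344 CPM, stabilized replicate 2 at 0.03318 CPM). Fst, also fading, was separate at E16.5 too.

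In most fading genes the controls changed with stage. Of 334 that were higher at E13.5, 286 rose with stage in controls (24.9% of all genes tested). Of 268 that were lower, 217 fell (22.6% of all genes tested). As for the reversed genes, the contrasts share libraries, so these counts describe the class and test nothing further. Sema3d, a secreted guidance cue (chr5:12383385-12588948), held 487, 512, 395 and 559 CPM in E13.5 controls and 24.8, 35.9, 30.1 and 37.1 CPM in E13.5 stabilized libraries. At E16.5 it held 47.4, 49.1, 36.3, 40.4 and 38.05 CPM in controls and 29.9, 20.7, 32.1, 48.2 and 34.7 CPM in stabilized libraries. The E13.5 controls stood apart, and the other 3 groups overlapped (interaction 3.58 ± 0.27, edgeR adjusted p 1.49e-08). Hic1, a transcriptional repressor, and its neighbour Rtn4rl1, a Nogo receptor relative, lie close together on chromosome 11 (chr11:75164565-75169519 and chr11:75193783-75267769) and did the same. Hic1 had 37.3, 32.3, 19.1 and 21.4 CPM in E13.5 controls and 1.3, 2.46, 1.73 and 3.47 in stabilized buds, and stayed under 2 CPM in all E16.5 libraries (4.50 ± 0.71, edgeR adjusted p 6.44e-05). The interaction of Rtn4rl1 was 3.99 ± 0.49 (edgeR adjusted p 6e-06). The ion channel gene Kcnh7 (3.05 ± 0.56, edgeR adjusted p 0.000458) and Nkain2 (3.11 ± 0.62, edgeR adjusted p 0.000699) also faded in this direction.

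The 6 leading fading genes that were higher at E13.5, among those at or above a mean log2 CPM of 1, were near 0 in E13.5 controls. Fst, follistatin, a binder of activins and Bmps (chr13:114452290-114458951), had 0, 0, 0 and 0.615 CPM in E13.5 controls and 7.39, 1.43, 8.11 and 8.898 CPM in stabilized buds. At E16.5 it had 70.2, 132, 90.6, 97.8 and 91.2 CPM in controls and 47.5, 21.3, 33.99, 53.2 and 42.1 CPM in stabilized libraries. E16.5 stabilized libraries all lay below the E16.5 controls, but the effect did not pass (-1.28 ± 0.52, edgeR adjusted p 0.0616). The interaction was -6.67 ± 0.99 (edgeR adjusted p 8.78e-05), and -11.88 without E13.5 control replicate 4, which held all 19 counts of its group. Krt79, a keratin of hair canal and sebaceous duct cells, went from 3 counts over the E13.5 controls to 262 ± 92.4 CPM at E16.5 (SD, n = 5) while stabilized samples went from 5.79 ± 4.39 (SD, n = 4) to 170.5 ± 112 CPM (SD, n = 5). Matn4, a matrilin (-7.29 ± 0.81, edgeR adjusted p 3.2e-06, and -11.12 without E13.5 control replicate 3), Ptx3, a pentraxin (-6.49 ± 1.08, edgeR adjusted p 0.000157), Apod, apolipoprotein D, and Plet1, a surface protein (-5.02 ± 0.98, edgeR adjusted p 0.000848), also rose with stage in controls from near 0. Krt79, Ptx3, Apod and Plet1 did not pass in limma-voom (adjusted p 0.16, 0.0615, 0.126 and 0.067).

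Among effects that kept their sign, those that grew most were led by Dkk4, a secreted Wnt antagonist (chr8:22624043-22627547). It had 7.84, 9.696, 66.5 and 6.44 CPM in E13.5 controls and 698, 307, 477 and 402 in E13.5 stabilized buds, and 1 count over all E16.5 controls against 149.5, 181, 175, 135 and 158 CPM in E16.5 stabilized libraries. The ratio at E16.5 had a counting interval from 4308 to 948300, and the interaction was 9.46 ± 1.39 (edgeR adjusted p 8.94e-05), or 7.96 without E13.5 control replicate 3, the highest of its group. Lrrc15 had 2.53 ± 1.11 CPM in E13.5 stabilized (SD, n = 4) and 898 ± 234 in E16.5 stabilized libraries (SD, n = 5), with under 1 CPM in every control; its interaction of 6.14 ± 2.03 (edgeR adjusted p 0.0284) did not pass without E13.5 control replicate 4 (4.84, edgeR adjusted p 0.363), without E13.5 control replicate 1 (edgeR adjusted p 0.0675) or without the 3 libraries that stood apart (edgeR adjusted p 0.0528). Crispld2 grew in the other direction, with 321, 187, 245, 268 and 209 CPM in E16.5 controls and 0.115, 0.631, 0.1703, 0.714 and 0.984 CPM in stabilized libraries (-5.53 ± 0.71, edgeR adjusted p 1.81e-05). Itga9, an integrin subunit (-3.66 ± 0.55, edgeR adjusted p 7.77e-05), and Lama1, a laminin chain (-2.24 ± 0.46, edgeR adjusted p 0.00127), also did.

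Among higher genes, the effects that shrank most belonged to genes with no counts in E13.5 controls. Foxc1, a forkhead factor (chr13:31806633-31812476), had no counts in the 4 E13.5 controls and 31.8, 7.23, 37 and 28.3 CPM in E13.5 stabilized libraries, at least 1108-fold higher. At E16.5 it was at 37.1, 30.9, 43.9, 46.5 and 25.6 CPM in controls and 123, 71.6, 90.9, 62.1 and 129 CPM in stabilized libraries, separate by a log2 effect of 1.37 ± 0.35 (edgeR adjusted p 0.00625). Muc15, a membrane mucin, and Pcdhac2, a clustered protocadherin whose near-identical relatives make its counts uncertain, also had no counts in E13.5 controls, with stabilized buds at least 189.2-fold and 297.5-fold higher. Btbd3 (2.27 ± 0.28, edgeR adjusted p 4.82e-06) and Plxnd1, a semaphorin receptor (1.72 ± 0.42, edgeR adjusted p 0.00397), were lower in stabilized samples by an amount that shrank. Plxnd1 did not pass with offsets from the deposited normalized values (1.33, edgeR adjusted p 0.172). The same held for Cfap54 (1.59 ± 0.50, edgeR adjusted p 0.0198), which did not pass without the 3 libraries that stood apart (1.00, edgeR adjusted p 0.146).

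Of 31 Wnt ligands and receptors tested, 13 passed with a higher and 6 with a lower interaction (15.6% and 16.6% of all genes tested). The ligands Wnt4 (4.97 ± 0.27, edgeR adjusted p 4.68e-10), Wnt5a (2.43 ± 0.22, edgeR adjusted p 1.71e-07), Wnt6 (2.19 ± 0.21, edgeR adjusted p 2.76e-07) and Wnt7a (4.29 ± 0.46, edgeR adjusted p 1.34e-06) went from lower to higher. Wnt4 held 155, 145, 129.6 and 171 CPM in E13.5 controls, 74.2, 57.5, 73.2 and 63.2 in E13.5 stabilized, 6.92, 6.43, 7.82, 8.21 and 13.9 in E16.5 controls and 134, 105, 144, 101 and 121 CPM in E16.5 stabilized libraries, with no overlap between genotypes at either stage. Wnt3, Wnt7b, Wnt10a, Wnt10b and Wnt2b were late and higher, and no Wnt ligand tested passed with a lower interaction. Wnt6 and Wnt10a are neighbours on chromosome 1.

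The 6 that passed with a lower interaction were receptors or co-receptors. Ror1 (-3.93 ± 0.25, edgeR adjusted p 1.22e-09) and Ror2 (-2.45 ± 0.32, edgeR adjusted p 7.57e-06), which bind Wnt5a, went from higher to lower, as did Fzd9 (-5.55 ± 0.64, edgeR adjusted p 2.12e-06). Ror1 had 6.06, 4.76, 7.36 and 6.15 CPM in E13.5 controls and 26.6, 25.8, 19.9 and 28.1 in E13.5 stabilized buds. It had 83.8, 104, 87.2, 99.5 and 109 CPM in E16.5 controls and 17.6, 26.7, 25.2, 27.99 and 33.5 CPM in E16.5 stabilized libraries. Stabilized libraries overlapped between stages, while the controls moved from below to above them. Fzd7, Lrp5 and Lrp6 were late and lower, and Fzd5, Fzd6 and Fzd10 late and higher.

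Among 14 secreted Wnt antagonists, 5 passed with a higher and 4 with a lower interaction (15.6% and 16.6% of all genes tested). Dkk4 and Dkk1 grew, and Frzb was late and higher at under 5 CPM. The co-receptor Kremen2 (1.995 ± 0.365, edgeR adjusted p 0.000381) and Sfrp5 were lower at E13.5 and faded. Sfrp1 (-3.71 ± 0.61, edgeR adjusted p 0.000205) and Sfrp2 (-2.58 ± 0.30, edgeR adjusted p 2.04e-06) were late and lower. Sostdc1, a joint Wnt and Bmp antagonist, had means of 46.1, 476.6, 269.5 and 638.4 CPM in E13.5 control, E13.5 stabilized, E16.5 control and E16.5 stabilized libraries, so its effect shrank as controls rose (-2.12 ± 0.23, edgeR adjusted p 9.88e-07). Wif1 shrank in the same way (-2.65 ± 0.81, edgeR adjusted p 0.0197).

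In the Hedgehog pathway the ligand Shh, the receptor Ptch1 and the effector Gli1 did not pass, and other members did. The ligand Shh (-0.77 ± 0.95, edgeR adjusted p 0.589), the receptor and target Ptch1 (0.03 ± 0.32, edgeR adjusted p 0.975) and the effector and target Gli1 (-0.54 ± 0.61, edgeR adjusted p 0.552) did not pass for the interaction, with log2 effects at E13.5 of 9.73, 4.89 and 6.97 and at E16.5 of 8.96, 4.92 and 6.43. Of 13 tested, 6 passed with a higher interaction and 3 with a lower one (15.6% and 16.6% of all genes tested). Gli2, an activating effector (2.30 ± 0.34, edgeR adjusted p 4.22e-05), and Disp1, which releases the ligand (1.56 ± 0.18, edgeR adjusted p 1.89e-06), were late and higher. The co-receptors Boc (1.16 ± 0.19, edgeR adjusted p 0.000113) and Cdon (0.84 ± 0.20, edgeR adjusted p 0.00311) went from lower to higher, and the co-receptor Gas1 faded (-1.96 ± 0.22, edgeR adjusted p 1.91e-06). Hhip, the decoy receptor, had 1 count in E13.5 controls against 12.3 ± 3.25 CPM in stabilized buds (SD, n = 4, counting interval of the ratio 280.8 to 61940). At E16.5 it had 4.82 against 28.9 CPM, so its effect shrank (interaction -7.42 ± 0.58, edgeR adjusted p 2.34e-08).

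In the Fgf and ERK list 12 of 28 genes passed with a lower interaction and 5 with a higher one (16.6% and 15.6% of all genes tested). Targets and feedback inhibitors of ERK signalling went from higher to lower: the transcription factor Etv5 (-2.90 ± 0.21, edgeR adjusted p 1e-08), the phosphatase Dusp6 (-2.13 ± 0.18, edgeR adjusted p 7.32e-08) and the inhibitor Spred1 (-1.53 ± 0.20, edgeR adjusted p 8.94e-06). Etv5 held 105, 96.7, 67.5 and 99.8 CPM in E13.5 controls and 190.3, 213, 216 and 212 in stabilized buds. At E16.5 it held 563, 527, 544, 483 and 521 CPM in controls and 126, 200, 162, 122 and 184 CPM in stabilized libraries, with the order of the genotypes switched and no overlap. The ligand genes Fgf3 and Fgf15, neighbours on chromosome 7 (chr7:144838083-144844436 and chr7:144896531-144900953), had no counts in E13.5 controls. In E13.5 stabilized libraries Fgf3 had 18.3, 15.8, 24.5 and 26.7 CPM and Fgf15 had 17.99, 15.6, 9.77 and 10.01 CPM, at least 911.7-fold and 569.5-fold higher. By E16.5 both were under 5 CPM in every library. Fgf3 was still higher in stabilized libraries (log2 effect 2.26 ± 0.40, edgeR adjusted p 0.000211), so its effect shrank. Fgf15 faded (log2 effect at E16.5 -0.50 ± 0.51, edgeR adjusted p 0.465). The receptor Fgfr2 went from lower to higher (1.36 ± 0.20, edgeR adjusted p 3.77e-05) and Fgfr1 was late and lower (-1.41 ± 0.18, edgeR adjusted p 7.79e-06). Etv4 (0.01 ± 0.25, edgeR adjusted p 0.993) and Spry4 (-0.32 ± 0.28, edgeR adjusted p 0.418) did not pass.

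Of 31 Bmp and TGF-β genes tested, 12 passed with a higher and 4 with a lower interaction (15.6% and 16.6% of all genes tested). Bmp2 (chr2:133552159-133562885) had 289, 319, 236 and 216 CPM in E13.5 controls and 228, 249, 301 and 275 CPM in E13.5 stabilized buds, which overlapped. At E16.5 it had 2.802, 4.07, 4.96, 5.696 and 2.14 CPM in controls and 188, 196, 215, 136 and 206 CPM in stabilized libraries, far apart after a drop in controls (interaction 5.59 ± 0.32, edgeR adjusted p 5.85e-10). Bmp4 (4.62 ± 0.41, edgeR adjusted p 2.46e-07) and the Bmp-responsive factors Msx1 (4.48 ± 0.53, edgeR adjusted p 6.03e-06) and Msx2 (4.05 ± 0.53, edgeR adjusted p 2.05e-05) grew, and the targets Id3 (3.08 ± 0.34, edgeR adjusted p 1.54e-06) and Id1 (3.07 ± 0.44, edgeR adjusted p 4.77e-05) were late and higher. Id4 was late and lower (-2.69 ± 0.37, edgeR adjusted p 2.01e-05), and Inhbb, an activin subunit, went from higher to lower (-5.21 ± 0.74, edgeR adjusted p 6.31e-05).

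Notch genes passed at shares near those of all genes tested (15.6% higher and 16.6% lower), with 3 of 20 higher and 5 lower. The smallest adjusted p values were those of Dll1, above, and of Hey1, a Notch target that also went from higher to lower (-3.07 ± 0.34, edgeR adjusted p 1.32e-06). The ligand Jag1 grew instead (1.07 ± 0.21, edgeR adjusted p 0.000574), and the targets Hes1 (-0.24 ± 0.20, edgeR adjusted p 0.39) and Nrarp did not pass. In the Eda and NF-κB list 7 of 24 passed with a higher interaction. Icam1, a target of NF-κB, went from lower to higher (2.46 ± 0.26, edgeR adjusted p 8.98e-07). Bcl3, Tnip1 and Nfkbia, which restrain or modify NF-κB, were lower at E13.5 and faded, and Rel was late and higher.

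Embryonic mammary genes moved mostly towards a higher interaction (20 of 34, and 8 lower, against 15.6% and 16.6% of all genes tested). Gata3, a factor needed for mammary placodes and luminal cells, was lower in stabilized buds and faded (means of 1048, 397, 222.6 and 281.2 CPM; 1.74 ± 0.25, edgeR adjusted p 2.81e-05). Esr1, the oestrogen receptor, faded as well (2.39 ± 0.86, edgeR adjusted p 0.0422), and Tbx3, an early mammary factor, was lower at both stages by an amount that shrank (0.53 ± 0.19, edgeR adjusted p 0.0373). Tfap2c was late and lower (-1.74 ± 0.26, edgeR adjusted p 3.15e-05). Pthlh, the bud's signal to its mesenchyme, was lower at both stages with no passing interaction (0.17 ± 0.32, edgeR adjusted p 0.741), and Elf5 did not pass (0.35 ± 0.40, edgeR adjusted p 0.55).

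Luminal markers split, with 7 of 27 higher and 9 lower (15.6% and 16.6% of all genes tested). Aldh1a3, which makes retinoic acid, went from higher to lower: 2.07, 0.238, 0.736 and 0.0324 CPM in E13.5 controls, 65.8, 32.2, 53.5 and 65.4 in E13.5 stabilized, 195, 175, 175, 170.2 and 148 in E16.5 controls and 28.4, 37.9, 21.2, 32.6 and 39.7 CPM in E16.5 stabilized libraries, with no overlap (-8.55 ± 0.75, edgeR adjusted p 4.41e-07). Areg, the Egf-family ligand amphiregulin, had no counts in E13.5 stabilized libraries, at least 94.2-fold lower than controls, and was higher than controls at E16.5 (2.99 ± 0.90, edgeR adjusted p 0.0135). Pgr, the progesterone receptor (-2.27 ± 0.41, edgeR adjusted p 0.000252), Cldn3 (-3.004 ± 0.552, edgeR adjusted p 0.000453) and Krt18 (-1.32 ± 0.36, edgeR adjusted p 0.00881) were late and lower. Elf3 went from lower to higher (2.68 ± 0.49, edgeR adjusted p 0.000297).

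Of 28 basal and myoepithelial genes, 6 passed with a higher and 7 with a lower interaction, against 15.6% and 16.6% of all genes tested. The basal keratins Krt5 (1.32 ± 0.32, edgeR adjusted p 0.00351) and Krt15 (2.26 ± 0.56, edgeR adjusted p 0.00503) and the receptor Egfr (2.10 ± 0.21, edgeR adjusted p 3.7e-07) grew, and the integrin Itga2 was late and higher (2.35 ± 0.28, edgeR adjusted p 3.09e-06). The contractile gene Tagln was higher at E13.5 and faded (-3.71 ± 0.53, edgeR adjusted p 2.3e-05), and the actin-binding Cnn2 was reversed, with log2 effects of 0.85 ± 0.24 at E13.5 and -1.15 ± 0.21 at E16.5 (edgeR adjusted p of the interaction 9.25e-05).

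Regulators of the hair placode and matrix passed with a higher interaction in 20 of 39 cases and with a lower one in 8. For all genes tested the shares were 15.6% and 16.6%. Foxn1, which directs hair keratin synthesis, was late (5.64 ± 0.59, edgeR adjusted p 1.24e-06), Lhx2 grew (2.53 ± 0.70, edgeR adjusted p 0.0104) and the placode factor Foxi3 faded (-2.64 ± 0.48, edgeR adjusted p 0.000397). Cxcl14, a chemokine of skin epithelium, was late and had means of 1312, 1622, 136.8 and 2845 CPM (4.07 ± 0.24, edgeR adjusted p 7.07e-10). The vitamin D receptor gene Vdr went from lower to higher (4.20 ± 0.32, edgeR adjusted p 2.05e-08).

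Hox genes, which set position along the body axis, passed with a higher interaction in 10 of 25 cases (15.6% of all genes tested). With DESeq2 the count was 11 and with limma-voom 5. In controls 16 of the 25 fell with stage (22.6% of all genes tested). Hoxc5 (chr15:102967443-103017429) had 50.02, 47.8, 46.02 and 42.6 CPM in E13.5 controls, 4.001, 13.47, 6.24 and 6.35 in E13.5 stabilized, 0, 0, 0.0752, 0.06701 and 0 in E16.5 controls and 0.497, 0.978, 0.477, 0.643 and 0.475 CPM in E16.5 stabilized libraries. It was lower at E13.5 and higher at E16.5, but at under 1 CPM late (6.95 ± 0.69, edgeR adjusted p 4.05e-07). Its locus overlaps that of Hoxc8 (2.99 ± 0.49, edgeR adjusted p 0.000116), so reads between them may be shared. Hoxc13, which regulates hair keratin genes, grew (4.65 ± 1.02, edgeR adjusted p 0.00238). Without the 3 libraries that stood apart 6 Hox genes passed.

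Basement membrane chains changed in opposite directions. Of 37 matrix genes 12 passed with a higher and 13 with a lower interaction (15.6% and 16.6% of all genes tested). The effect was reversed in 10 of them (4.77% of all genes tested). The laminin chain genes Lamc1 (-2.16 ± 0.22, edgeR adjusted p 4.63e-07) and Lamb1 (-1.03 ± 0.17, edgeR adjusted p 0.000106) went from higher to lower. Npnt, a basement membrane ligand of integrin α8 (1.80 ± 0.15, edgeR adjusted p 5.27e-08), and Fras1 (3.28 ± 0.35, edgeR adjusted p 9.69e-07) went the other way, as did Lama3 (3.07 ± 0.18, edgeR adjusted p 4.84e-10). The collagen IV chains Col4a1 (-1.86 ± 0.24, edgeR adjusted p 7.68e-06) and Col4a2 (-1.67 ± 0.27, edgeR adjusted p 8.6e-05) were late and lower, and the hemidesmosomal Col17a1 late and higher (1.88 ± 0.28, edgeR adjusted p 3.39e-05).

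Of 43 adhesion and junction genes 18 were late (19.8% of all genes tested) and 18 did not pass. A higher interaction passed in 16 of the 43 and a lower one in 9 (15.6% and 16.6% of all genes tested). Connexin 43 (Gja1, 1.94 ± 0.21, edgeR adjusted p 8.96e-07) and the desmosomal Perp (3.26 ± 0.35, edgeR adjusted p 1.28e-06) were late and higher, while desmoplakin (Dsp, 1.99 ± 0.30, edgeR adjusted p 3.88e-05) grew. Nectin3 was the sole reversed member (2.53 ± 0.21, edgeR adjusted p 5.22e-08), and Dsg3, a desmosomal cadherin, shrank (-3.43 ± 0.37, edgeR adjusted p 1.42e-06). The simple-epithelium claudins Cldn6 (-1.27 ± 0.23, edgeR adjusted p 0.000311) and Cldn7 (-1.64 ± 0.28, edgeR adjusted p 0.000179) were late and lower.

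Cholesterol and fatty acid genes passed with a lower interaction in 14 of 34 cases and with a higher one in 3. For all genes tested the shares were 16.6% and 15.6%. Among them 7 were higher at E13.5 and faded (1.93% of all genes tested). These included the sterol sensor Insig1 (-1.07 ± 0.24, edgeR adjusted p 0.00158), the transporter Stard4 and the enzymes Idi1, Fdps and Sqle. The fatty acid enzymes Acaca (-0.90 ± 0.17, edgeR adjusted p 0.000453) and Fasn (-1.23 ± 0.26, edgeR adjusted p 0.00127) were late and lower. With offsets from the deposited normalized values, 9 passed with a lower interaction in place of 14.

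Targets of p53 passed with a higher interaction in 10 of 27 cases and with a lower one in 2 (15.6% and 16.6% of all genes tested). Trp53inp1 (3.56 ± 0.35, edgeR adjusted p 4.24e-07) and Sesn1 (1.52 ± 0.22, edgeR adjusted p 2.2e-05) went from lower to higher. Trp53i11 was late and higher (1.91 ± 0.28, edgeR adjusted p 2.75e-05). In the hormone list 11 of 27 were higher and 3 lower, led by Vdr, Aldh1a3 and Areg, above, and by Ghr, the growth hormone receptor, which was late and higher (1.56 ± 0.25, edgeR adjusted p 7.61e-05) but did not pass with offsets from the deposited normalized values (0.87, edgeR adjusted p 0.0646). Interferon response genes passed with a higher interaction in 3 of 26 cases (Ifi27, Stat2 and Irf1), a smaller share than the 15.6% of all genes tested. Irf1 did not pass in limma-voom (adjusted p 0.0765), with offsets from the deposited normalized values (edgeR adjusted p 0.137) or without the 3 libraries that stood apart (edgeR adjusted p 0.0576).

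Of 27 immediate early and stress genes 2 passed with a higher and 1 with a lower interaction, smaller shares than those of all genes tested (15.6% and 16.6%). The AP-1 subunit Fosl2 went from lower to higher, with means of 203.7, 80.99, 90.7 and 261.1 CPM in E13.5 control, E13.5 stabilized, E16.5 control and E16.5 stabilized libraries (2.86 ± 0.38, edgeR adjusted p 1.4e-05). The chaperone Hsph1 went the other way (-1.66 ± 0.16, edgeR adjusted p 3.94e-07), and the small heat shock protein Hspb1 was late and higher (2.36 ± 0.43, edgeR adjusted p 0.000382). Of 33 glycolysis and hypoxia genes 6 were higher and 7 lower, shares near those of all genes tested (15.6% and 16.6%). The glycolytic enzymes Eno1 (-1.37 ± 0.29, edgeR adjusted p 0.00105) and Pkm (-1.06 ± 0.21, edgeR adjusted p 0.000622) were late and lower, though Eno1 did not pass with offsets from the deposited normalized values (-0.79, edgeR adjusted p 0.301), while the hypoxia target Bnip3 was late and higher (2.25 ± 0.38, edgeR adjusted p 0.000126).

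**Figure D5:**
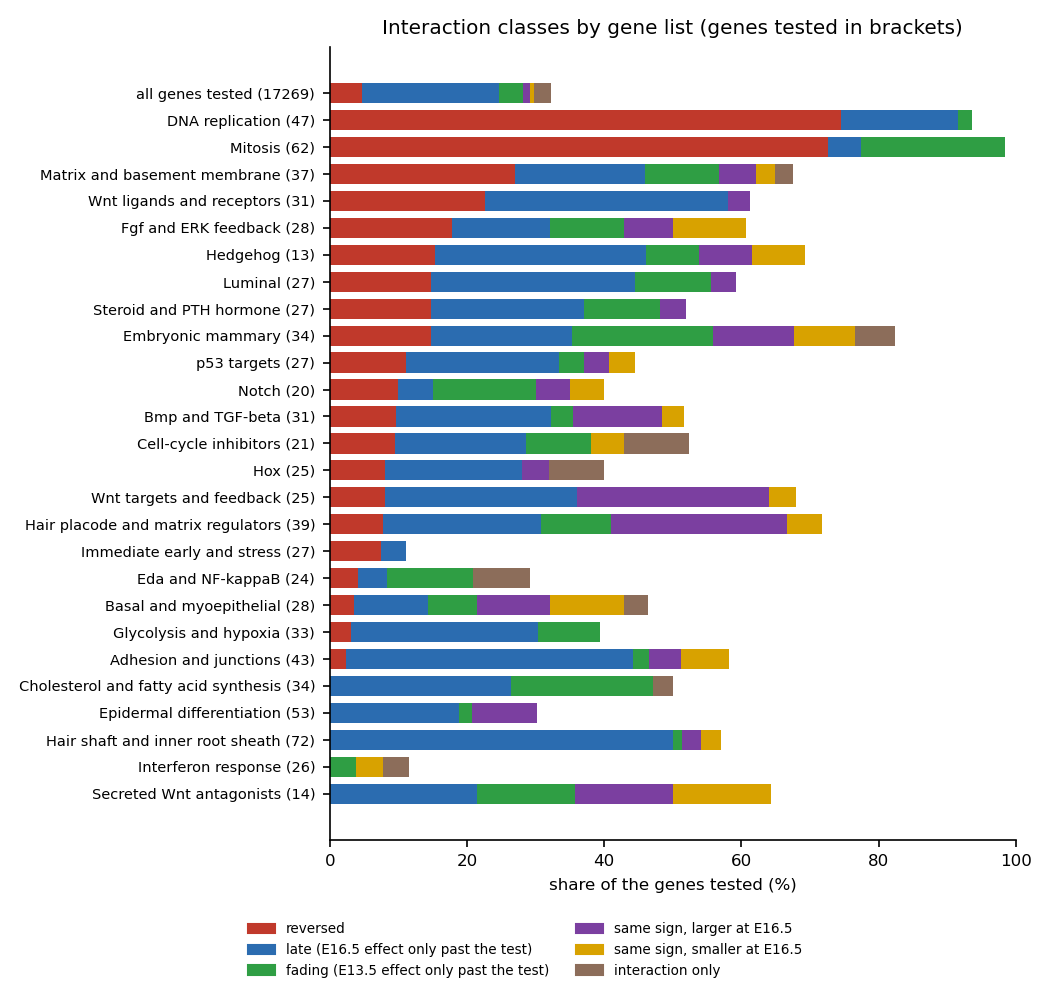
Stacked bars give the percentage of tested genes of each pathway list in each class, with all 17269 genes tested in the top bar. Reversed genes make up 35 of 47 DNA replication and 45 of 62 mitosis genes, against 4.77% of all genes tested.

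Markers of other cell types moved with the groups in part. Beside the counts of markers below, 15.6% of all genes tested passed with a higher and 16.6% with a lower interaction. Summed mesenchyme markers ran from 534.6 to 1145 CPM in E13.5 controls, 902.6 to 1135 in E13.5 stabilized, 391 to 813.6 in E16.5 controls and 1011 to 1386 in E16.5 stabilized libraries, and 5 of 19 passed with a higher and 1 with a lower interaction. Of the mesenchyme markers Dpt and Mfap5 were at 0 in E13.5 controls and Mfap5 in E13.5 stabilized libraries. Melanocyte markers summed to 155.9 to 197, 43.97 to 68.81, 165 to 249.4 and 190.6 to 298.8 CPM in the same order (2 of 11 higher, 1 lower), with Tyrp1, Oca2 and Gpr143 at 0 in both E13.5 groups, Mlana and Slc45a2 also in E13.5 controls, and Oca2 in E16.5 controls. Immune markers were at 16.62 to 26.08, 4.449 to 7.553, 23.13 to 33.17 and 10.8 to 13.6 CPM (1 of 13 higher, 3 lower). Those at 0 were Adgre1, Tyrobp, Lyz2, C1qa, Cd207 and Cd3e in E13.5 controls, Tyrobp, Cd207 and Trdc in E13.5 stabilized libraries, and Cd207, Cd3e and Trdc in E16.5 controls. Endothelial markers were under 54 CPM and muscle markers under 38 CPM in every library. Single markers that led these lists were Thy1 of mesenchyme, reversed from lower to higher (3.09 ± 0.36, edgeR adjusted p 2.21e-06), Mitf of melanocytes, reversed likewise (1.901 ± 0.250, edgeR adjusted p 9.49e-06), and Cd74 of immune cells, fading (3.91 ± 0.69, edgeR adjusted p 0.0002). The part of such cells in the results above was not tested.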

How the data were processed

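RNA-seq was measured in 18 libraries of dissected mouse mammary bud epithelium. The deposited table of all samples holds estimated counts per gene, made before deposit with Salmon 0.99.0. Reads had been trimmed with Trimmomatic 0.39 and checked with FastQC 0.11.8 and MultiQC 1.9. These steps are from the submitters' processing notes, which also name mm10 and DESeq2 3.15. A second deposited table holds the same genes divided by size factors (a signal scaled by the authors), and it was used only as an alternative scaling. Settings of these tools, and whether counting used strand, are not given in the sources used.

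Counts were tested with edgeR 4.0.16 in R 4.3.3: filterByExpr with a minimum count of 10, TMM factors, 1 mean per group over all 18 libraries, robust quasi-likelihood F-tests and Benjamini-Hochberg adjustment over the 17269 genes tested, with a threshold of 0.05. The procedure was tested on simulated data. Group labels came from the sample titles. Each SE was computed as the absolute fitted log2 fold change divided by the square root of the F statistic of its test. Where a group was near 0 counts, as for Kcnn4 in E13.5 controls, this SE can understate the uncertainty. SDs are over libraries, and all tests were two-sided. A floor of 3 counts per group set bounds, and 95% counting intervals were exact and cover counting error only.

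The classes, gene lists and members were chosen with earlier results of these data known. Genes were named by rule: Ctnnb1, Krt14, Axin2 and Lef1, then, among interaction genes at or above a mean log2 CPM of 1, the 8 reversed per direction with the largest smaller effect, 6 late and 6 fading per direction by interaction, 3 that grew and 3 that shrank per direction, and up to 4 members of each list (1 of each marker list) by adjusted p. Some genes that meet the rule are not reported here. Other list members named were chosen after their values were seen. Positions are from GENCODE M21 (GRCm38/mm10). Alternatives were DESeq2 1.42.0, limma 3.58.1 (voom), other scalings, filters and thresholds, a replicate block, each library left out and, added after seeing the data, the 3 libraries that stood apart left out together. No library pair agreed within sampling noise. A deposited R object was not used here.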

Additional observations from a re-analysis of the deposited data

Results flagged for a closer look

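The interaction itself is a difference between the genotype effects of the 2 stages, and it passed for 5562 genes, of which 823 were reversed. Within groups, Dixon's test was applied to the highest and lowest library of each group for 44 genes, the leading reversed, late and fading ones with Ctnnb1, Krt14, Axin2 and Lef1, 176 tests in all, and 21 libraries' values stood further from their group than the critical value. Chance gives about 5% of such tests, or 1 in 20.

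E13.5 control replicate 3 held 6 of these values. It was low for Caln1 (52.9 CPM, others 93.8 to 95.4), Col9a2 (2.17, others 4.30 to 4.76), Grik2 (75.2, others 116 to 121) and Rtn4rl1 (75.3, others 123 to 131). It was high for Apod (0.0334 CPM, others 0) and Matn4 (0.234, others 0), which for Apod is 1 count. Its mitochondrially encoded share of 4.18% was also the highest of its group, and its part in these values was not tested.

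Other E13.5 controls stood apart for Fst (replicate 4 at 0.615 CPM, others 0), Kcnn4 (replicate 1 at 0.0296, others 0) and Krt79 (replicate 2 at 0, others 0.0296 to 0.0334). Those of Kcnn4 and Krt79 are differences of 1 count. Among E13.5 stabilized libraries, replicate 2 was low for Fst (1.43 CPM, others 7.39 to 8.90), Map3k21 (0.464, others 2.77 to 3.44) and Ptx3 (0.299, others 2.94 to 3.33) and high for Serpinb10 (5.67, others 2.88 to 3.14). Replicate 4 was high for Dlg2 (3.34 CPM, others 0.935 to 1.03).

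At E16.5, control replicate 1 was low for Krt79 (109 CPM, others 246 to 342) and Serpinb8 (1.72, others 5.30 to 7.43), and control replicate 5 for Osr1 (137, others 199 to 229) and Rtn1 (41.1, others 52.2 to 56.6). Stabilized replicate 1 was low for Map3k21 (2.18 CPM, others 7.14 to 10.6) and high for Serpinb10 (18.6, others up to 14.1), and stabilized replicate 3 was low for Apod (12.4, others 26.8 to 36.4).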

How the results depend on the processing

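With offsets implied by the deposited normalized values, the genotype effect at E13.5 passed for 1710 genes, 450 were reversed and 176 kept their sign. At an adjusted p of 0.01 the interaction passed for 3654 genes, the E13.5 effect for 1493 and the stage change in stabilized samples for 3036, with 395 genes reversed, 373 fading and 134 of the same sign. With a rule of 2-fold change, under 1.5-fold at the other stage for late and fading genes, the counts were 3672 for the interaction, 243 reversed, 1113 late and 250 fading. DESeq2, RLE scaling, limma-voom and the other filters kept the counts of calls and classes over all genes within 1.5 times. Counts of single lists moved further in places, given beside them. Lower interactions outnumbered higher ones in the full data (2870 against 2692), but not in DESeq2 (2864 against 3313), with RLE scaling (2702 against 2875) or with the deposited offsets (1892 against 2001).

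Leaving out each library in turn gave 4942 to 6094 genes for the interaction, 1920 to 3035 for the E13.5 effect, 6434 to 7771 for the E16.5 effect, 602 to 1044 reversed, 3054 to 3465 late, 426 to 760 fading and 216 to 322 of the same sign (299 with all libraries). The stage change gave 7407 to 8362 genes in controls and 3960 to 5479 in stabilized samples. Most of the highest counts came without E13.5 control replicate 3. No gene named by rule changed sign in any alternative run. The median interaction over all genes, 0.09, was -0.0017 with the replicate block and -0.0061 in limma-voom.

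Same-numbered libraries of the 2 genotypes correlated by -0.254 to 0.383, and 4 of 9 pairs were over 0.1, so the numbers were not taken to pair the libraries. With the replicate block the interaction passed for 5040 genes (2289 higher, 2751 lower) and 742 were reversed. Lrrc15 did not pass with the replicate block (edgeR adjusted p 0.0559). The stage change could not be fitted with it.

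Of 153 genes named by rule, 144 to 152 kept their call by alternative. Ctnnb1 lost its call in 14 alternatives, and Krt14 gained one in 7. Depth limits genes with few counts at E13.5, where a floor of 3 counts per group bounds the fold.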
